A study of Mus musculus with 61 samples.

Results

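Gdf11, Lin28a, Lin28b and Nr6a1 are 4 genes known to time the switch from making trunk to making tail in the mouse embryo. They were taken by symbol from the table of all genes, where they are 4 of 55052 listed entries, and followed in all 61 RNA-seq libraries of mouse stembryos. Levels are in FPKM (fragments per kilobase of transcript and per unit of sequencing depth), a scale that allows for transcript length. All 4 passed the filter on low values (a mean of at least 1 FPKM in at least 1 condition), as did 17098 genes in all.

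Stembryos are aggregates of mouse embryonic stem (mES) cells that receive a pulse of a Wnt agonist and then grow a protrusion resembling the tail bud. Wild type (wt) stembryos were collected in a time course of 8 stages from 72 h to 168 h after aggregation, with 2 libraries a stage. Separate wild-type libraries were made at 96 h (4 libraries), 120 h (4) and 144 h (2), and set beside 8 mutant lines that change the HoxD cluster on chromosome 2 or its flank. Del(CBS1), Del(CBS2), Del(CBS4), Del(CBS1-2) and Del(CBS1-5) lack the CTCF binding sites (CBS) that their names give, Del(d1-d4) lacks the segment from Hoxd1 to Hoxd4, Del(sub-TAD1) lacks a regulatory domain beside the cluster, and Ins(2xCBS-d4d8) has extra CTCF sites between Hoxd4 and Hoxd8.

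Del(CBS1), Del(CBS1-2), Del(CBS2), Del(d1-d4), Del(sub-TAD1), Ins(2xCBS-d4d8) and Del(CBS1-5) were sequenced at 96 h and 120 h, Del(CBS1-5) also at 144 h, and Del(CBS4) at 120 h and 144 h. Each of these conditions had 2 libraries, except Del(sub-TAD1) at 96 h with 3. All lines are homozygous. Del(CBS1-2) was made in Del(CBS1) cells, and both Del(sub-TAD1) and Del(CBS1-5) came from blastocysts of mutant mice on another background than the other lines, so that for these lines mutation and strain cannot be told apart. The Del(sub-TAD1) cells also carry a transgene that restores the deleted gene Mtx2. Each library is a pool of stembryos, and from 108 h only elongating ones were collected. The authors call the replicates independent samples and biological replicates. Whether the pools of a group came from separate cultures is not described in the sources used here. The p-values measure the spread between these pools, and how much of it is technical was not tested.

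The libraries held an estimated 15 M to 38.9 M fragments (median 24 M). They fall into 2 sets by their summed FPKM over all genes, 605412 to 657594 in 28 libraries (set 1) and 461923 to 551878 in the other 33 (set 2). Set 1 holds the first 3 wild-type replicates of each earlier stage (96 h, 120 h) and most mutants of those stages. Set 2 holds the time course, wild-type replicate 4, all 144 h libraries, Del(CBS4), Ins(2xCBS-d4d8) and Del(sub-TAD1) at 96 h. Hoxd1, Hoxd3 and Hoxd4 were listed at 0 in all 4 Del(d1-d4) libraries and at 2.34 FPKM or more in each of the 35 other libraries of 96 h and 120 h outside the time course. Markers of pluripotent cells summed to between 1304 and 1314 FPKM at 72 h of the time course and to between 44.3 and 55.8 FPKM at 168 h. The spinal cord list rose from between 4.63 and 5.83 FPKM to between 185.6 and 191 FPKM. The stages therefore differ in the levels of cell type markers, and in such pools fewer cells of a type and less RNA per cell cannot be told apart.

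In the embryo the trunk is built from axial progenitors at the tail end, and at the trunk-to-tail transition these cells change their output and begin to use the most posterior Hox genes. GDF11 is a secreted ligand of the TGF-beta family that binds activin type II receptors and signals through SMAD2 and SMAD3, and embryos without it make the transition late. LIN28A and LIN28B are RNA-binding proteins that block the maturation of let-7 microRNAs, which in turn repress Lin28a and Lin28b. NR6A1 (germ cell nuclear factor) is an orphan nuclear receptor that represses Pou5f1 and promotes trunk formation.

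Lin28a, Lin28b and Nr6a1 hold let-7 seed matches in their 3′UTRs, and Gdf11 holds none. Of the mature let-7 and miR-98 microRNAs, taken by name from the RefSeq sequences (GRCm38.p6), 10 share the let-7 seed, bases 2 to 8, shown in capitals. MicroRNAs of other names were not searched for this seed. These 3 members of the family show how the seed is kept while the rest varies, and the pair of miR-196 microRNAs, which lie within the Hox clusters, are shown because their seed is the let-7 seed moved by 1 base.
mmu-let-7a-5p: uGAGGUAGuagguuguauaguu
mmu-let-7g-5p: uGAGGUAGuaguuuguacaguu
mmu-miR-98-5p: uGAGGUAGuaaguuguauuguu
mmu-miR-196a-5p: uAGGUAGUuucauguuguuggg
mmu-miR-196b-5p: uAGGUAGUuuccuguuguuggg

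The seed match of let-7 is CTACCTC in the transcript and that of miR-196 is ACTACCT, so that the matches can overlap by 6 bases. In the longest annotated 3′UTR of each gene (GENCODE vM21), searched on the strand of the transcript, Gdf11 had 0 let-7 matches in 2811 bases. Lin28a had 2 in 2775 bases, Lin28b had 4 in 4445 bases and Nr6a1 had 8 in 4457 bases. Of 21020 genes with a 3′UTR, 9.0% held the let-7 match, and among 2153 genes with a 3′UTR of 2775 to 4457 bases 18.9% held it. In that second group 0.19% had 4 or more matches, and Nr6a1 was the 1 gene with 8 or more. The group ends at the length of the Nr6a1 3′UTR, so longer ones were not compared. The sites followed by A, a feature known to strengthen repression, numbered 2 in Lin28a, 1 in Lin28b and 3 in Nr6a1, and 3.1% of all 21020 genes had any. They are printed below with the seed match in capitals (mm10, minus strand), together with the single miR-196 match of Gdf11. Lin28a had 1 such match, Lin28b 3 and Nr6a1 4, and 13.9% of the genes of like 3′UTR length held one. A match is a description of the sequence, and neither let-7 nor miR-196 was measured in these libraries of poly-A RNA.
Lin28a, chr4:134005189-134005218, 909 bases after the stop codon: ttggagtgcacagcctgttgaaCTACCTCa
Lin28a, chr4:134004551-134004580, 1547 bases after: atgctttgagatcgccacaaacCTACCTCa
Lin28b, chr10:45381022-45381051, 36 bases after: tcccttcacccgggcgggaagtCTACCTCa
Nr6a1, chr2:38727449-38727478, 371 bases after: tccataatgttgacaaagacaaCTACCTCa
Nr6a1, chr2:38726592-38726621, 1228 bases after: tagaaaggaaaggggcattaaaCTACCTCa
Nr6a1, chr2:38723685-38723714, 4135 bases after: tgatggcaagtgcatcatgaacCTACCTCa
Gdf11, chr10:128882626-128882655, miR-196, 2473 bases after: cagcgctggcacctcttcccacACTACCTg

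All 4 genes lie on the minus strand of mm10. Gdf11 (ENSMUSG00000025352) spans chr10:128882295-128891718 and Lin28a (ENSMUSG00000050966) spans chr4:134003330-134018841. Lin28b (ENSMUSG00000063804) spans chr10:45376620-45470201. Nr6a1 (ENSMUSG00000063972) spans chr2:38723370-38927688, on the chromosome of HoxD but outside the cluster, and its body holds the antisense gene Nr6a1os and 2 microRNA genes whose exons do not overlap its own. An antisense model, Gm13061, overlaps 1 exon of Lin28a. The libraries are stranded, but whether the level estimates used the strand is not given in the sources used here, so the part of Gm13061 in the Lin28a level was not tested.

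The upstream sequences of the members also differ in composition. The 250 bases before the Gdf11 start (RefSeq, GRCm38.p6) were 81.2% G or C with 33 CpG pairs, and those before the Lin28b start 39.2% with 6. They were searched on both strands for the TATA box (TATAAA), the CCAAT box (CCAAT), the GC box (GGGCGG), an E-box (CACGTG), a CDX motif (TTTATG) and a nuclear receptor site (AGGTCA), which stand in 12.4%, 33.8%, 32.7%, 6.0%, 10.8% and 14.0% of 32851 promoters of like extent. Gdf11 had 1 TATAAA, 2 CCAAT and 8 GC boxes, Lin28b had 2 CDX motifs, 1 CCAAT and 1 E-box, and the second start of Nr6a1 had 2 AGGTCA sites. The windows of Lin28a (225 bases) and of the first Nr6a1 start (208 bases) had none of the 6. The 3 windows with matches are shown with the matches in capitals, adjoining ones merged, since they are the promoters of a gene that rose, one that passed no test between stages and one that fell.
Gdf11, chr10:128891719-128891968, minus strand: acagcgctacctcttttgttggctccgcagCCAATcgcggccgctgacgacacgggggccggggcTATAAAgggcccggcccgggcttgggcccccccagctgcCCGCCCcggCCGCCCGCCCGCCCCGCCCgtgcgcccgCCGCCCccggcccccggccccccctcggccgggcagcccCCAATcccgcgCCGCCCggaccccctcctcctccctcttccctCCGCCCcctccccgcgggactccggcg
Lin28b, chr10:45470202-45470451, minus strand: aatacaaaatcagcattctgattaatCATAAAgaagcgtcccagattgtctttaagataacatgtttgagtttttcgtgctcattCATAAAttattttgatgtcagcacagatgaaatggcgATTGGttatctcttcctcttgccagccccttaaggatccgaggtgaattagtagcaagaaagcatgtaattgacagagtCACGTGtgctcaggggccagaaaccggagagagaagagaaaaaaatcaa
Nr6a1, second start, chr2:38784521-38784765, minus strand: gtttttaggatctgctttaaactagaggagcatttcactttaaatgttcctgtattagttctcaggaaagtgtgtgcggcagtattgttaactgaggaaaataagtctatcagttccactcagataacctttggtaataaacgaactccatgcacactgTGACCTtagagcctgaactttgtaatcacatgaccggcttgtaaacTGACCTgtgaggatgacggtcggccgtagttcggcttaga

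Over the time course the 4 genes followed different courses. Gdf11 rose from a low level at 72 h and stayed high from 108 h, Lin28a fell by stages from the highest level of the 4, Nr6a1 rose and then fell, and Lin28b stayed within a narrow range. Between 72 h and 168 h, 48.2% of all tested genes passed the test (limma, adjusted p under 0.05), and 3 of the 4 members did. Successive stages differed less, and the share of genes called was 16.3% from 72 h to 84 h, 20.7% to 96 h, 9.45% to 108 h, 7.06% to 120 h, 2.46% to 132 h, 5.42% to 144 h and 9.87% to 168 h. Of the 28 tests of a member over these steps, 7 passed.

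**Figure D1:**
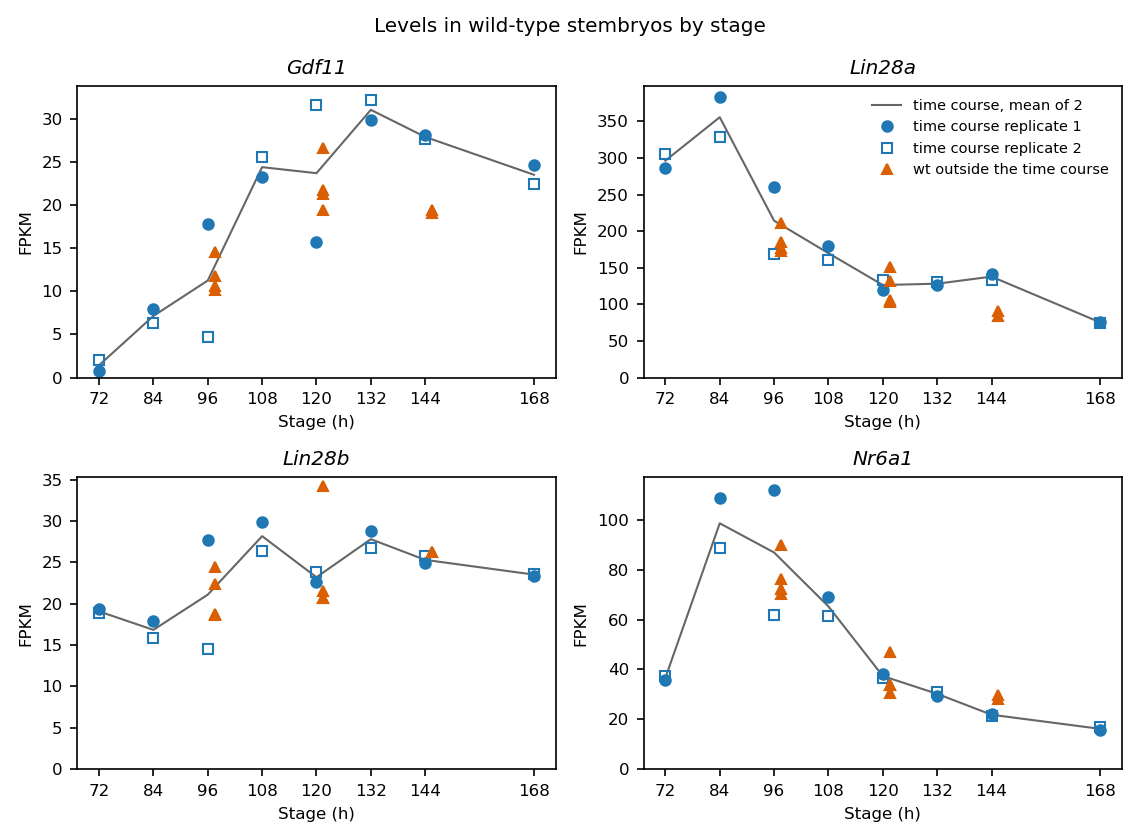
Levels of the 4 genes in FPKM (vertical axes, each starting at 0) against hours after aggregation in wild-type stembryos. Filled circles are replicate 1 and open squares replicate 2 of the time course, the line joins the means of the 2 libraries, and triangles drawn slightly to the right are the wild-type libraries outside the time course. Gdf11 is at 0.769 and 2.09 FPKM at 72 h and at 29.8 and 32.2 FPKM at 132 h, while Nr6a1 peaks at 84 h and ends at 15.5 and 16.8 FPKM.

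Gdf11, the ligand of the group, was at 0.769 and 2.09 FPKM in the 2 libraries of 72 h, and at 7.95 and 6.33 FPKM at 84 h. The 96 h libraries lay far apart, at 17.8 and 4.73 FPKM. Both libraries of 108 h, at 23.2 and 25.6 FPKM, were above every earlier library. The 120 h pair was again split, at 15.8 and 31.6 FPKM. The libraries stood at 29.8 and 32.2 FPKM at 132 h, 28.1 and 27.7 FPKM at 144 h, and 24.6 and 22.4 FPKM at 168 h. The peak was thus at 132 h (mean 31.0 FPKM, 21.7 times the 72 h mean), and 108 h was the first stage over 0.5 of it. At 168 h the mean was 75.8% of the peak.

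Gdf11 was higher at 168 h than at 72 h by 4.10 ± 0.33 on the log2 scale (SE, adjusted p = 5.93e-13), a change larger in size than that of 97.0% of tested genes. The step from 72 h to 84 h passed the test (2.38 ± 0.33, adjusted p = 9.30e-07), as did that from 96 h to 108 h (1.40 ± 0.33, adjusted p = 0.00433). The second of these rests on 96 h replicate 2. Without that library it was 0.45 (adjusted p = 0.538), and without 108 h replicate 2 it was 1.33 (adjusted p = 0.0506). From 108 h on no step passed, and the levels at 108 h and 120 h, and at 120 h and 168 h, overlapped between libraries.

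The split pairs of Gdf11 went with splits in cell type markers, whose part in the result was not tested. At 96 h, replicate 1 had 621 FPKM of summed presomitic mesoderm markers and 123 FPKM of somite markers, against 386 and 279.6 FPKM in replicate 2. At 120 h, replicate 1 had 79.1 FPKM of endoderm markers and 30.0 FPKM of endothelium markers, against 14.9 and 3.62 FPKM in replicate 2. The other 3 members also differed at 96 h, each being higher in replicate 1, but at 120 h their 2 libraries lay close together.

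Lin28a, which keeps let-7 low in early embryonic cells, was the most abundant member at every stage. It measured 287 and 306 FPKM at 72 h and reached its peak at 84 h with 383 and 328 FPKM. At 96 h the libraries were at 260 and 168 FPKM, and at 108 h at 180 and 160 FPKM. A level part followed, with 120 and 133 FPKM at 120 h, 127 and 130 FPKM at 132 h, and 142 and 134 FPKM at 144 h. The libraries of 168 h were the lowest of all 61, at 75.7 and 75.03 FPKM. The 168 h mean was 21.2% of the peak.

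The fall of Lin28a between 72 h and 168 h was 1.97 ± 0.13 on the log2 scale (log2 change −1.97, adjusted p = 8.63e-15), so that 0.254 of the 72 h level was left. It came in steps. The step from 84 h to 96 h was −0.76 ± 0.13 (adjusted p = 4.70e-05) and that from 144 h to 168 h was −0.87 ± 0.13 (adjusted p = 1.55e-05). The step from 108 h to 120 h was −0.43 ± 0.13 (adjusted p = 0.0455) and was not called without 108 h replicate 1 (−0.34, adjusted p = 0.333), 108 h replicate 2 (−0.51, adjusted p = 0.0727) or 120 h replicate 1 (−0.35, adjusted p = 0.293). The stages 132 h and 120 h, and 96 h and 108 h, overlapped.

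Nr6a1 rose early and then fell. It went from 35.7 and 37.5 FPKM at 72 h to 109 and 88.6 FPKM at 84 h, and both libraries of 84 h were above both of 72 h. The 96 h libraries were at 112 and 61.7 FPKM and those of 108 h at 69.3 and 61.3 FPKM. It was at 38.3 and 36.4 FPKM at 120 h, 29.5 and 30.9 FPKM at 132 h, 22.2 and 21.4 FPKM at 144 h, and 15.5 and 16.8 FPKM at 168 h. From 120 h no library of a stage overlapped with one of the next, and 168 h held the lowest values.

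The rise of Nr6a1 to 84 h was 1.42 ± 0.16 on the log2 scale (adjusted p = 1.12e-08) and the drop from 108 h to 120 h was −0.80 ± 0.16 (adjusted p = 0.00103). The later steps to 144 h (−0.47 ± 0.16, adjusted p = 0.0760) and to 168 h (−0.43 ± 0.16, adjusted p = 0.0770) did not pass, but did with median-of-ratios scaling (adjusted p = 0.0321 and 0.0474) and with replicate number as a block (adjusted p = 0.0136 and 0.0157). The step from 84 h to 96 h was −0.24 (adjusted p = 0.343) and, without 96 h replicate 1, −0.67 (adjusted p = 0.000760). That from 96 h to 108 h was −0.35 (adjusted p = 0.175) and, without 96 h replicate 2, −0.78 (adjusted p = 0.000636). From 72 h to 168 h the log2 change was −1.18 ± 0.16 (adjusted p = 6.80e-08), and the mean at 168 h was 16.4% of the 84 h peak. The mean level was first under 0.5 of the peak at 120 h, where that of Lin28a was so at 108 h. At 108 h, however, Lin28a in replicate 1 (180 FPKM) was still over 0.5 of its peak mean (355.6 FPKM).

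Lin28b, the paralogue of Lin28a, behaved otherwise. Its libraries ranged from 14.5 FPKM (96 h replicate 2) to 29.9 FPKM (108 h replicate 1), and the highest stage mean, 28.1 FPKM at 108 h, was 1.67 times the lowest, 16.8 FPKM at 84 h. The 2 libraries of 96 h, at 27.7 and 14.5 FPKM, spanned nearly this whole range. At 72 h the libraries were at 19.3 and 18.8 FPKM and at 168 h at 23.4 and 23.6 FPKM. The change from first to last stage was 0.30 ± 0.18 with a 95% interval of −0.06 to 0.67 (adjusted p = 0.180), and none of the 7 steps passed. With only the 72 h and 168 h libraries in the fit the adjusted p was 0.0143. The steps around 96 h rest on its split libraries. From 96 h to 108 h the change was 0.49 (adjusted p = 0.0836), and 0.95 without 96 h replicate 1 (adjusted p = 0.000172). It also passed with the block (adjusted p = 0.0145) and with median-of-ratios scaling (adjusted p = 0.0422). From 84 h to 96 h it was 0.25 (adjusted p = 0.394), and 0.72 without 96 h replicate 2 (adjusted p = 0.00306). In the order of stage means, 4 of the 7 pairs of neighbours overlapped. The interval for Lin28b lies wholly above that for Lin28a, which was −2.24 to −1.70, but the difference between the genes was not tested.

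Set beside each other, the pairs changed their balance. The ratio of Lin28a to Lin28b was 14.8 and 16.3 in the 72 h libraries, and 3.18 and 3.23 in those of 168 h. Its mean was highest at 84 h (21.1) and then 10.5 at 96 h and 6.04 at 108 h. The means of 120 h (5.45) and 144 h (5.46) were close, with 4.62 at 132 h between them. The ratio of Nr6a1 to Gdf11 had a mean of 32.2 at 72 h, 9.67 at 96 h and 1.79 at 120 h. It was below 1 in both libraries of 132 h (0.960 and 0.988) and lowest at 168 h (mean 0.690), so that in the time course the FPKM of Gdf11 exceeded that of Nr6a1 from 132 h.

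Over the 16 time-course libraries the log2 levels of Lin28a and Nr6a1 had a Pearson r of 0.776, and of 0.905 over the 14 libraries from 84 h on. For Gdf11 and Lin28b r was 0.719, and 0.906 from 84 h. For Gdf11 and Lin28a it was −0.659, and −0.602 from 84 h, and for Gdf11 and Nr6a1 −0.267, and −0.602 from 84 h. These are descriptions, since libraries share stage and replicates of a stage share its age. The genes whose course was most like that of Gdf11 were Hoxc4 (r = 0.988), Hoxb9 (0.980), Smug1 (0.979), Wfikkn1 (0.9753) and Zbtb5 (0.9748), among 3234 candidates over the same libraries. For Lin28a they were B3gnt7 (0.9751), Etv5 (0.972), Evx1os (0.972), Ripk3 (0.972) and Man2a1 (0.970). For Nr6a1 they were Prtg (0.958), Dll3 (0.955), Kbtbd8 (0.954), Cdk18 (0.953) and Rftn1 (0.952). Lin28b had its likest genes at lower values, with Hoxa7 at 0.904, Chst11 at 0.855, Rhoq at 0.841, Cnih2 at 0.841 and Phf13 at 0.838.

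The genes around GDF11 signalling were mostly higher at the end of the course. Of 18 listed genes 14 were tested, and 8 rose and 2 fell between 72 h and 168 h, beside 25.3% and 22.9% of all tested genes. Their median log2 change was 0.52 beside 0.00 over all tested genes. Wfikkn1, which encodes a secreted protein that binds GDF11, rose by 5.01 ± 0.38 (adjusted p = 1.78e-13), from a mean of 0.317 FPKM to 13.3 FPKM. Pcsk5, the convertase that cleaves the GDF11 precursor, rose by 3.56 ± 0.32 (adjusted p = 9.43e-12) from 0.0817 to 2.03 FPKM, but had its highest mean at 96 h with 13.3 FPKM. Bmp1, a protease of the group that frees the ligand from its prodomain, rose by 2.76. Fst, which encodes the antagonist follistatin, dropped by 6.37 on the log2 scale (−6.37 ± 0.32, adjusted p = 4.40e-18), from 408 FPKM to 4.88 FPKM, and was already at 29.1 FPKM at 96 h. Tll1, a protease related to Bmp1, also fell (log2 change −1.71). Of the receptors and mediators, Smad3 (2.32), Acvr2a (1.85), Tgfbr1 (1.60), Acvr2b (0.78) and Smad4 (0.25) rose. Mstn, the paralogue of Gdf11, and Fstl3, Wfikkn2 and Acvr1c were below the filter.

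The genes that LIN28 proteins work with changed in both directions. Of 8 genes of let-7 processing, all tested, Dis3l2, the exonuclease that degrades uridylated pre-let-7, rose (0.55), Drosha (−0.50) and Xpo5 (−0.32) fell and 5 did not pass, so that 3 of 8 were called beside 48.2% of all genes. Of 10 genes that are textbook targets of let-7, 6 rose and 2 fell, with a median of 0.55, beside 25.3% of all genes higher and 22.9% lower. Hmga2, a chromatin protein of growing tissues, rose by 3.21 ± 0.18 (adjusted p = 1.03e-16), from 20.6 to 185 FPKM, and was at 221 FPKM by 96 h. Igf2bp2 (2.33) and Mycn (1.64) rose next most, and Ccnd1, Igf2bp3 and Arid3a rose by 0.94, 0.78 and 0.33. Arid3b (−1.62) and Trim71 (−0.55) fell. Targets of let-7 therefore changed in both directions while Lin28a fell.

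Of 6 genes given as targets that NR6A1 represses, 2 were tested and both fell, beside 22.9% of all tested genes. Pou5f1, the pluripotency factor, dropped by 6.96 from a mean of 1127 to 8.97 FPKM, and Nanog by 5.02. Both are also on the list of pluripotent cell markers, whose summed level fell over the same stages. The germline genes Gdf9, Bmp15, Prm1 and Prm2 were below the filter. Counts for all 3 lists were the same with a pseudocount of 1 FPKM in place of 0.1.

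**Figure D2:**
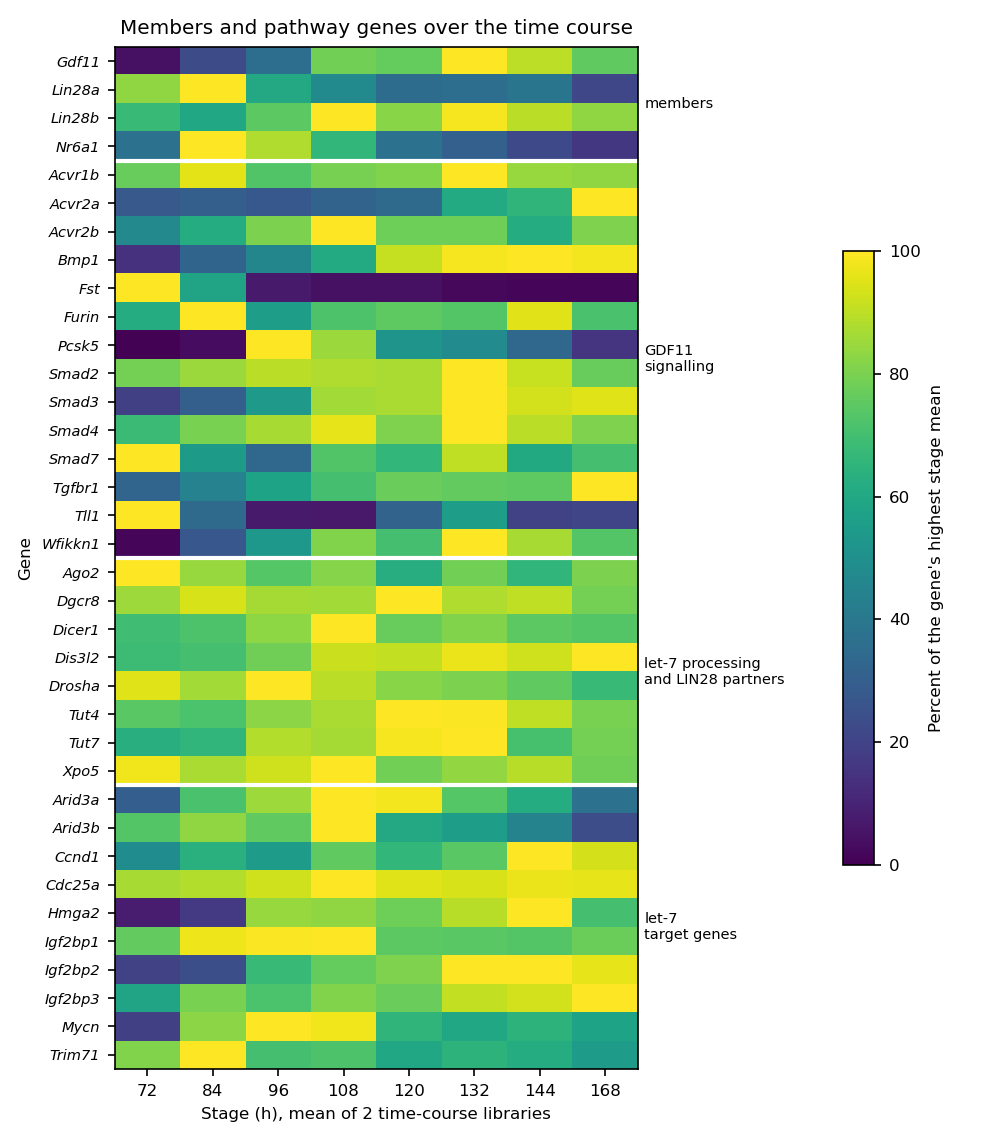
Stage means of the 4 genes and of the genes of the GDF11 signalling, let-7 processing and let-7 target lists in the time course, as a percent of each gene's highest stage mean (colour), with stages in hours across. Gdf11 passes 0.5 of its peak at 108 h, Fst is at its highest at 72 h and Hmga2 stays high from 96 h.

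The wild-type libraries outside the time course put the same question to a separate set of pools. Between 96 h and 120 h 27.1% of tested genes changed, and 3 of the 4 members did. Gdf11 was at 10.6, 10.2, 14.6 and 11.7 FPKM at 96 h and at 21.8, 21.3, 19.4 and 26.6 FPKM at 120 h. The groups did not overlap, and the change was 0.92 ± 0.23 (adjusted p = 0.00223). Lin28a went from 177, 173, 211 and 185 FPKM to 104, 106, 132 and 151 FPKM, again without overlap, a log2 change of −0.61 ± 0.09 (adjusted p = 2.94e-06). Nr6a1 went from 72.1, 70.5, 76.3 and 90.0 FPKM to 33.8, 33.6, 30.7 and 47.0 FPKM, with a log2 change of −1.10 ± 0.11 (adjusted p = 6.01e-10). Its change was larger than that of 90.4% of genes. These 3 changes passed in every alternative, without any one library and with replicate number as a block.

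Lin28b was at 18.6, 18.8, 22.3 and 24.5 FPKM at 96 h and at 21.5, 20.7, 20.7 and 34.3 FPKM at 120 h. The groups overlapped, and replicate 4 stood alone at 120 h. The change was 0.18 ± 0.13 with a 95% interval of −0.08 to 0.44 (adjusted p = 0.348).

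Between 120 h and 144 h 38.2% of genes changed and only Lin28a of the members passed, being at 83.9 and 90.6 FPKM at 144 h (log2 change −0.48 ± 0.12, adjusted p = 0.00147). All 144 h libraries are in set 2. With the set 2 libraries of both stages, time course included, the change was −0.29 (adjusted p = 0.138), and with the time course left out, against replicate 4 alone at 120 h, it was −0.79 (adjusted p = 0.000216). Nr6a1 was at 28.3 and 29.7 FPKM at 144 h, below all 4 libraries of 120 h, and its change of −0.30 ± 0.14 missed the threshold (adjusted p = 0.0751). Within set 2 it passed, at −0.68 with the time course included on both sides (adjusted p = 6.43e-05) and at −0.70 without it (adjusted p = 0.00245). Gdf11, at 19.4 and 19.1 FPKM, was no higher than at 120 h (−0.20 ± 0.28, adjusted p = 0.635), and its 2 libraries were lower than the time-course libraries of 144 h, at 28.1 and 27.7 FPKM. Lin28b was at 26.2 FPKM in both libraries, with a change of 0.14 ± 0.16 (adjusted p = 0.507). With replicate number as a block this was 0.31 (adjusted p = 0.0453), and without wild-type 120 h replicate 4 it was 0.32 (adjusted p = 0.0495). By the 1000 genes that vary most over the time course, the wild-type libraries labelled 144 h were nearest to 156 h and 157 h of the time course, and over 300 such genes to 126 h and 157 h.

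In the mutant lines the fall of Lin28a and Nr6a1 between 96 h and 120 h was present in each of the 7 lines sequenced at both stages. Each line gave its own change with no wild-type library in it. Over these 7 lines, 13.6% of all tests were called higher and 10.4% lower. Lin28a was called lower in 7 of 7 lines and Nr6a1 in 7 of 7, Gdf11 higher in 3 of 7, and Lin28b in none, either way. All 14 falls also passed in each alternative setting and without any 1 library.

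**Figure D3:**
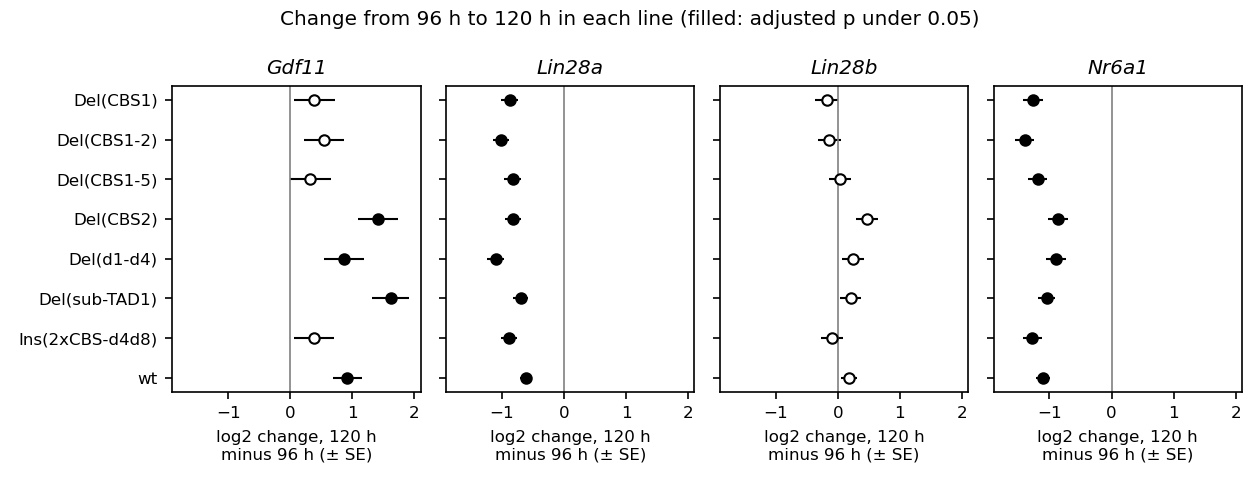
Change from 96 h to 120 h (log2 of FPKM plus 0.1, horizontal axis) for each of the 4 genes in wild type and in the 7 mutant lines with both stages. Points are fitted changes, bars are ± 1 SE, and filled points passed the test. Lin28a and Nr6a1 lie left of 0 in every line, from −0.61 (wild type) to −1.10 (Del(d1-d4)) and from −0.86 (Del(CBS2)) to −1.40 (Del(CBS1-2)).

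Nr6a1 fell most in Del(CBS1-2), from 86.0 and 91.9 FPKM to 33.5 and 33.8 FPKM (log2 change −1.40 ± 0.16). It fell least in Del(CBS2), from 62.1 and 62.9 FPKM to 35.0 and 33.7 FPKM (−0.86 ± 0.16). The lines differed at 96 h, between 60.7 FPKM in Del(CBS1-5) and 113 FPKM in Ins(2xCBS-d4d8), and less at 120 h, between 26.2 and 44.3 FPKM in the same 2 lines. Lin28a fell most in Del(d1-d4), from 173 and 163 FPKM to 79.8 and 76.3 FPKM (−1.10 ± 0.13), and least in Del(sub-TAD1), from 162, 182 and 193 FPKM to 110 and 110 FPKM (−0.70 ± 0.12). Over the alternatives, however, Lin28a changed by −0.944 to −0.611 in Del(sub-TAD1) and by −0.841 to −0.818 in Del(CBS1-5). Which line fell least thus depends on the setting. In neither gene did a line's 2 stages overlap.

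Gdf11 was at 6.76 and 6.59 FPKM in Del(CBS2) at 96 h and at 16.8 and 19.1 FPKM at 120 h, a rise of 1.41 ± 0.33 (adjusted p = 0.00131). In Del(sub-TAD1) it went from 6.25, 6.36 and 6.73 FPKM to 19.7 and 20.2 FPKM (1.62 ± 0.30, adjusted p = 4.64e-05). The 2 stages of Del(sub-TAD1) are in different library sets, and with upper-quartile scaling the median of all genes moved by −0.25 between them, with the rise still called. In Del(d1-d4) the levels were 8.47 and 9.87 FPKM and then 16.4 and 17.1 FPKM, and the rise of 0.87 ± 0.33 (adjusted p = 0.0464) was not called without any one of its 4 libraries (0.76 to 0.98). In Del(CBS1), Del(CBS1-2), Del(CBS1-5) and Ins(2xCBS-d4d8) the changes were 0.39, 0.54, 0.32 and 0.38 and did not pass, although in all 7 lines both 120 h libraries were above every 96 h library. With only the compared libraries in the fit, Gdf11 passed in Del(CBS1) (adjusted p = 0.0386), Del(CBS1-2) (0.00569) and Del(CBS1-5) (0.0358), but not in Ins(2xCBS-d4d8). Tested against the wild-type change, none of the 7 differences passed, and their intervals reached from −1.40 to 1.46.

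Lin28b changed by between −0.18 (Del(CBS1)) and 0.47 (Del(CBS2)) on the log2 scale in the 7 lines, and none passed. In Del(CBS2), which had the lowest levels at 96 h (14.5 and 14.7 FPKM), the 120 h libraries were at 19.3 and 21.3 FPKM, and the adjusted p was 0.0550. This rise passed with replicate number as a block (adjusted p = 0.00911), with only the compared libraries in the fit (0.0322) and with trend and robust moderation (0.0499).

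Between 120 h and 144 h, 27.6% of tests over Del(CBS1-5) and Del(CBS4) were called, and 1 of 8 for the members was. Nr6a1 in Del(CBS4) went from 59.4 and 65.7 FPKM to 29.8 and 29.5 FPKM, a log2 change of −1.07 ± 0.16 (adjusted p = 1.07e-05). The Del(CBS1-5) libraries of 120 h and 144 h are in different sets, and no member passed in that line. With only the compared libraries in the fit, Gdf11 (0.556, adjusted p = 0.00907) and Lin28a (0.233, adjusted p = 0.0255) were called higher. Lin28a was also called with upper-quartile scaling (0.366, adjusted p = 0.0355).

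**Figure D4:**
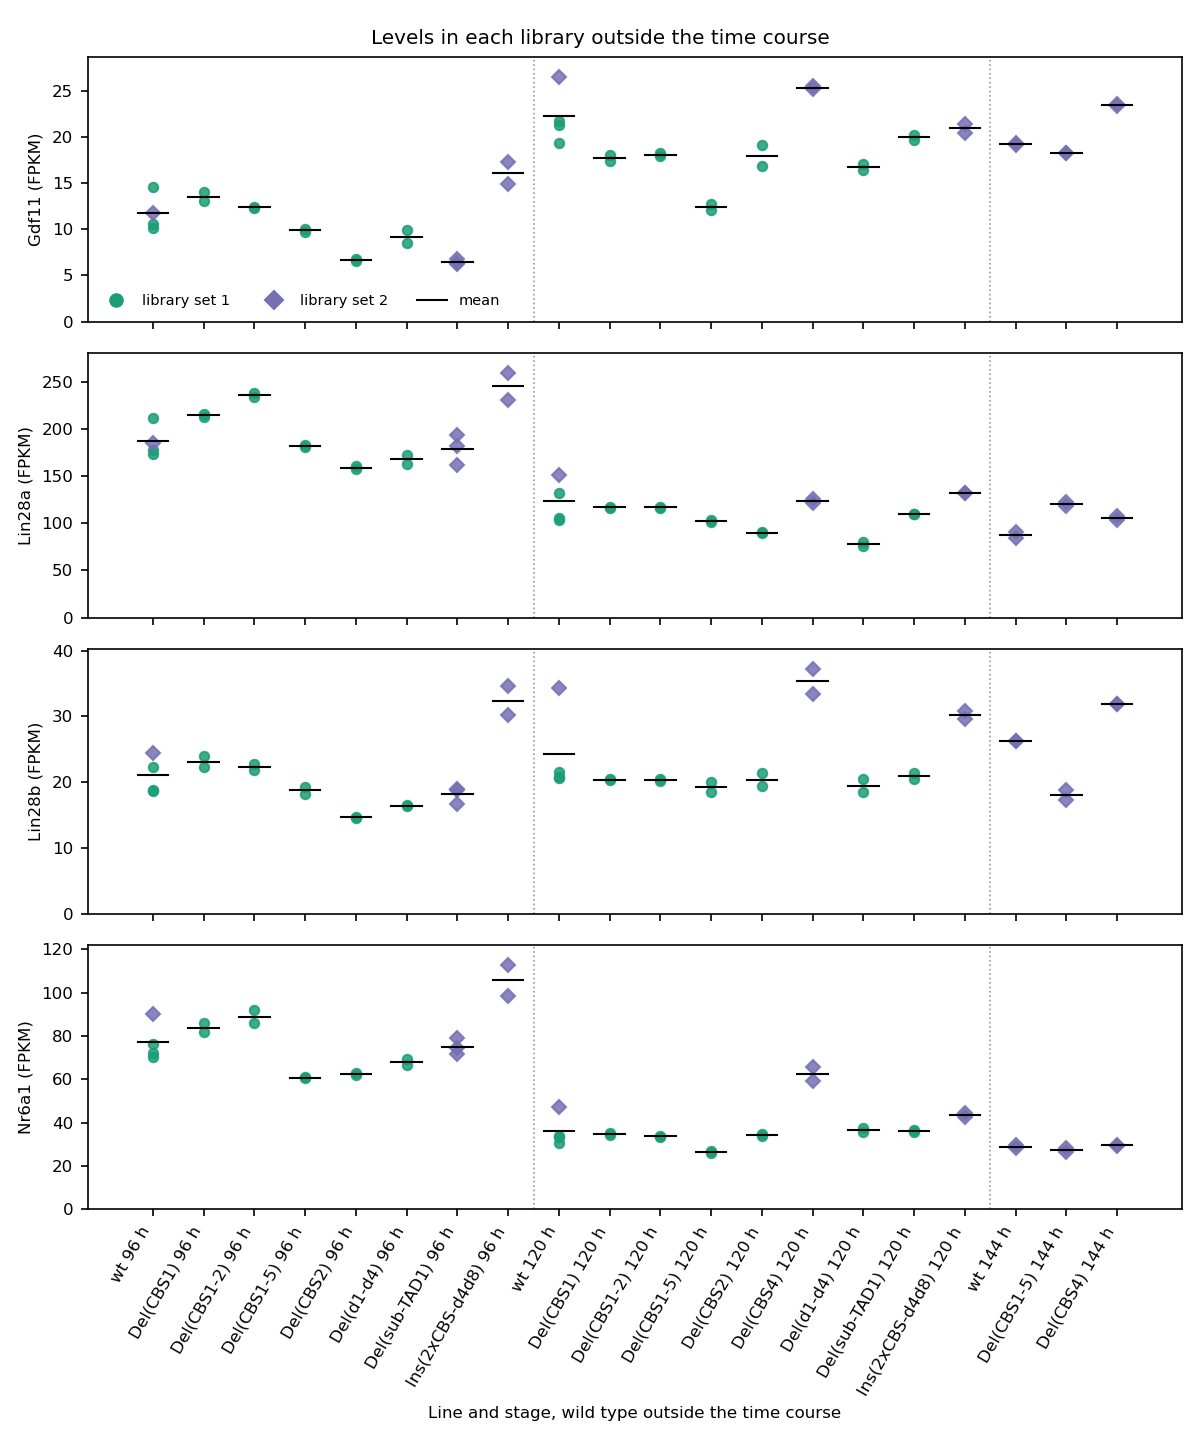
Level of each gene in FPKM (vertical axes from 0) in every library of the wild type outside the time course and of the 8 mutant lines, by stage (96 h, 120 h or 144 h). Circles are libraries of set 1, diamonds of set 2 and bars the means. Nr6a1 in Del(CBS4) at 120 h, at 59.4 and 65.7 FPKM, is above all other 120 h libraries, and Lin28b in Ins(2xCBS-d4d8) at 96 h is above every other 96 h library.

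Mutants were then compared with wild type at the same stage, which asks whether changes at HoxD go with changes in these timing genes. The mutants of 1 stage share their wild-type libraries, so their differences are not independent. Of 68 tests (4 genes in 17 mutant conditions) 11 passed, 6 higher and 5 lower, or 16.2%, beside 12.1% of all tests over all genes. With controls of the mutant's own library set, which in set 2 add the time-course libraries of the stage, 3 of the 11 passed. Lin28b in Ins(2xCBS-d4d8) at 96 h, Lin28b in Del(CBS1-5) at 144 h and Nr6a1 in Del(CBS4) at 120 h were those 3. With the same sets but the time course left out, 3 passed as well, Lin28a and Lin28b in Del(CBS1-5) at 144 h and Lin28a in Del(d1-d4) at 120 h. In set 2 at 96 h and 120 h that leaves wild-type replicate 4 as the 1 control, taken to vary like the other groups. Lin28b in Del(CBS1-5) at 144 h was the only call to hold with both kinds of matched control. At 144 h, however, leaving the time course out gives the same wild-type libraries as the main comparison. That setting therefore adds no support for the calls of this stage.

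**Figure D5:**
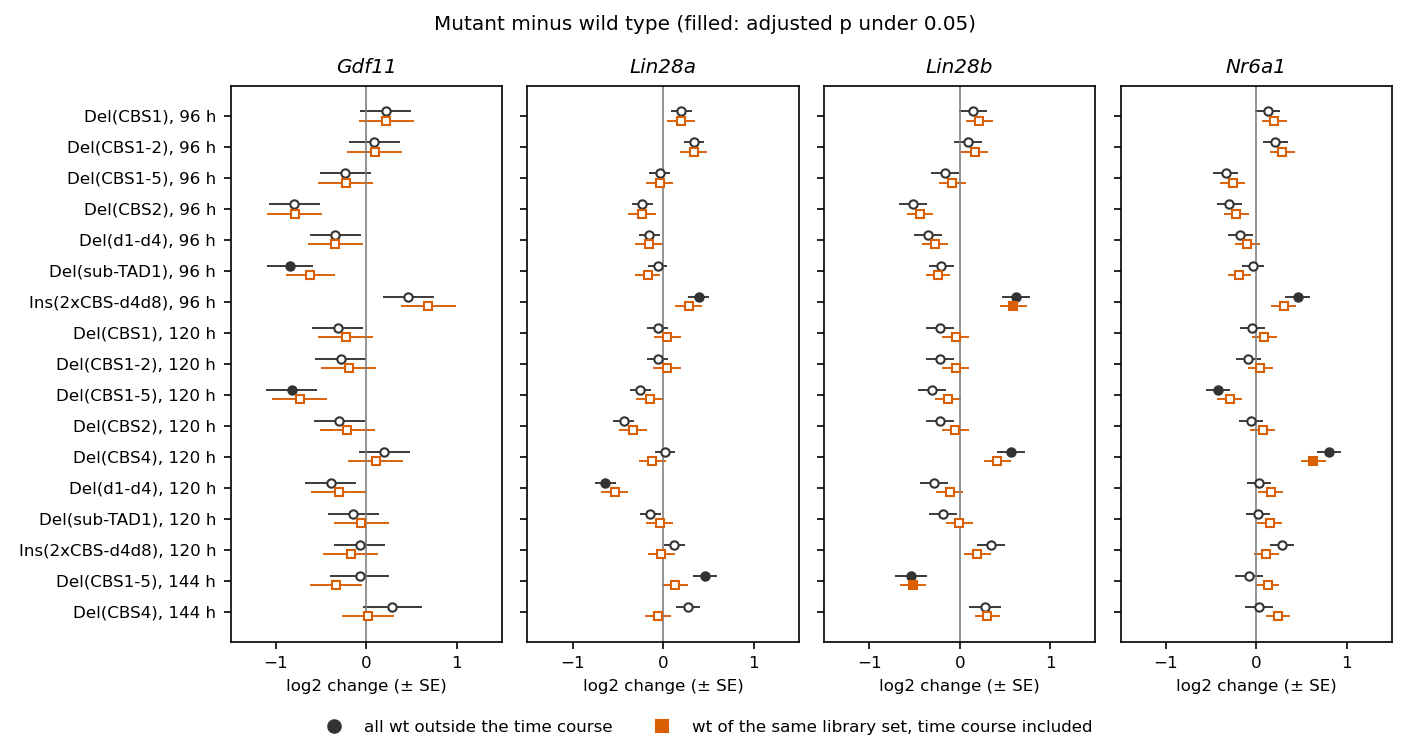
Difference between each mutant and wild type at the same stage (log2 of FPKM plus 0.1, horizontal axis) for the 4 genes. Circles use all wild-type libraries of the stage outside the time course, squares those of the same library set with the time course included, bars are ± 1 SE and filled points passed the test. Of 68 circles 11 are filled and of 68 squares 3 are, with Nr6a1 in Del(CBS4) at 120 h farthest to the right among the filled circles.

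In Del(CBS4) at 120 h, 37.5% of all genes differed from wild type, and Nr6a1 and Lin28b were among them. Nr6a1, at 59.4 and 65.7 FPKM, was above the 4 wild-type libraries (30.7 to 47.0 FPKM), with a difference of 0.80 ± 0.14 (adjusted p = 4.23e-05), or 0.63 within set 2 with the time course included (adjusted p = 0.00182). Against replicate 4 alone it was 0.41 (adjusted p = 0.0793). With only the compared libraries in the fit the adjusted p was 0.127. Lin28b, at 33.4 and 37.3 FPKM, overlapped with wild-type replicate 4 at 34.3 FPKM. Its difference was 0.57 ± 0.16 (adjusted p = 0.00427), but 0.42 within set 2 with the time course (adjusted p = 0.0581), 0.04 against replicate 4 alone (adjusted p = 0.971) and 0.49 without mutant replicate 2 (adjusted p = 0.0812). The mutant libraries had less of the somite markers, 217 to 313 FPKM in sum against 436 to 496 FPKM in wild type, and more of the spinal cord markers, 42.5 to 67.2 FPKM against 8.07 to 24.4 FPKM. The part of cell composition in these differences was not tested.

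In Ins(2xCBS-d4d8) at 96 h, where 27.9% of genes differed, 3 members were higher and none was lower. Lin28b was at 34.6 and 30.2 FPKM, above the 18.6 to 24.5 FPKM of wild type (0.62 ± 0.16, adjusted p = 0.00369). Lin28a was at 260 and 230 FPKM, above 173 to 211 FPKM (0.39 ± 0.12, adjusted p = 0.0105). Nr6a1 was at 113 and 98.6 FPKM, above 70.5 to 90.0 FPKM (0.46 ± 0.14, adjusted p = 0.0113). Gdf11 was also higher in both libraries, at 17.3 and 14.97 FPKM, but its 0.46 ± 0.28 did not pass (adjusted p = 0.241). Without mutant replicate 1 none of the 3 calls held (Lin28b 0.53, adjusted p = 0.0854; Lin28a 0.31, adjusted p = 0.187; Nr6a1 0.36, adjusted p = 0.190). Within set 2 with the time course, Lin28b still passed, while Lin28a was at 0.28 (adjusted p = 0.246) and Nr6a1 at 0.31 (adjusted p = 0.160). Against wild-type replicate 4 alone none passed, at 0.40 for Lin28b, 0.40 for Lin28a and 0.23 for Nr6a1 (adjusted p = 0.120, 0.0610 and 0.383). Another scaling moves all genes of this comparison by 0.15, so changes are relative to that. At 120 h none of the 4 passed in this line. With replicate number as a block, however, Lin28b was higher by 0.51 (adjusted p = 0.00165), Nr6a1 by 0.39 (adjusted p = 0.00720) and Lin28a by 0.26 (adjusted p = 0.04215). Without wild-type replicate 4, Lin28b (0.52, adjusted p = 0.00216) and Nr6a1 (0.41, adjusted p = 0.00938) passed. Same-numbered mutant and wild-type libraries did not deviate together (0 of 34 pairs with r above 0.1). Only wild type has a replicate 4, so the block is not independent of leaving out that library.

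Del(CBS1-5) differed from wild type in other members at each stage. At 96 h none passed. At 120 h, with 13.3% of all genes called, Gdf11 was at 12.1 and 12.8 FPKM, below the 19.4 to 26.6 FPKM of wild type (−0.83 ± 0.28, adjusted p = 0.0463). Nr6a1 was at 27.1 and 26.2 FPKM, below 30.7 to 47.0 FPKM (−0.43 ± 0.14, adjusted p = 0.0327). The mutant libraries had more of the pluripotent markers, 599 to 682 FPKM in sum against 36.4 to 327 FPKM, of the germ cell markers, 23.3 to 30.8 FPKM against 1.135 to 12.8 FPKM, and of the endothelium markers, 10.3 to 12.7 FPKM against 1.48 to 3.435 FPKM, whose part in the differences was not tested. Neither passed within set 1, where Gdf11 was at −0.74 (adjusted p = 0.136) and Nr6a1 at −0.29 (adjusted p = 0.207). With estimated age as a covariate neither passed, Gdf11 being at −0.86 (adjusted p = 0.0722) and Nr6a1 at −0.41 (adjusted p = 0.0771). The Gdf11 call was lost without either mutant library (−0.79, adjusted p = 0.279, and −0.87, adjusted p = 0.185), without wild-type replicate 1, 2 or 4 (adjusted p = 0.0732, 0.0690 and 0.109) and with replicate number as a block (−0.73, adjusted p = 0.0941). The Nr6a1 call was lost without mutant replicate 1 (−0.45, adjusted p = 0.168), mutant replicate 2 (−0.40, adjusted p = 0.209) or wild-type replicate 4 (−0.29, adjusted p = 0.134).

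At 144 h 23.7% of genes differed in Del(CBS1-5), and the paralogues Lin28a and Lin28b differed from wild type in opposite directions. Lin28a was at 123 and 118 FPKM, above the 83.9 and 90.6 FPKM of wild type (0.46 ± 0.13, adjusted p = 0.00902). Lin28b was at 18.8 and 17.2 FPKM, below 26.2 FPKM in both wild-type libraries (−0.54 ± 0.18, adjusted p = 0.0243). Both wild-type libraries are of the mutant's set. With the time-course libraries of 144 h added to them Lin28a was at 0.13 (adjusted p = 0.541) and Lin28b still passed. Lin28a was not called without wild-type replicate 1 (0.41, adjusted p = 0.0924) or mutant replicate 1 (0.43, adjusted p = 0.0710), and Lin28b not without any 1 of the 4 libraries (adjusted p = 0.0594 to 0.152). Markers of pluripotent cells summed to between 779 and 863 FPKM in these mutant libraries, against 7.42 to 12.3 FPKM in wild type. The nearest time-course age was 138 h to 139 h for the mutant and 156 h to 157 h for the wild type. With estimated age as a covariate neither passed, at 0.35 for Lin28a (adjusted p = 0.291) and −0.50 for Lin28b (adjusted p = 0.258). The part of the markers in the differences was not tested.

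Single members differed in 2 further lines. In Del(sub-TAD1) at 96 h 40.0% of all genes differed, and Gdf11, at 6.25, 6.36 and 6.73 FPKM, was below the 10.2 to 14.6 FPKM of wild type (−0.85 ± 0.25, adjusted p = 0.00701). Against set 2 with the time-course libraries of 96 h, which lie at 17.8 and 4.73 FPKM, the difference was −0.62 (adjusted p = 0.127), and against wild-type replicate 4 alone −0.85 (adjusted p = 0.203). The endoderm markers summed to 103 to 105 FPKM against 38.0 to 48.2 FPKM, and other scalings moved all genes by 0.12 or −0.10. In Del(d1-d4) at 120 h only 1.85% of genes differed, and Lin28a was one of them, at 79.8 and 76.3 FPKM below the 104 to 151 FPKM of wild type (−0.64 ± 0.12, adjusted p = 0.00147). Within set 1 this was −0.54 (adjusted p = 0.103, or 0.00585 with the time course kept apart in the fit), and without mutant replicate 2 it was −0.61 (adjusted p = 0.0775). With only the compared libraries in the fit the adjusted p was 0.776. Markers of pluripotent cells summed to 6.85 to 8.61 FPKM in these mutant libraries against 36.4 to 327 FPKM in wild type, and their part in the difference was not tested. In Del(CBS1), Del(CBS1-2) and Del(CBS2) no member passed at either stage. Lin28a in Del(CBS1-2) at 96 h (0.34, adjusted p = 0.0835) passed with median-of-ratios scaling (0.39, adjusted p = 0.0249), with replicate number as a block (0.48, adjusted p = 0.005605) and without wild-type replicate 3 (0.40, adjusted p = 0.04475), and Lin28a in Del(CBS2) at 120 h (−0.44, adjusted p = 0.1503) without wild-type replicate 1 (−0.51, adjusted p = 0.0347) or 2 (−0.50, adjusted p = 0.0389).

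The stage change of each line was also tested against that of the wild type, where 4.43% of all tests passed and 2 of 36 for the members did. In Del(CBS4) the fall of Nr6a1 from 120 h to 144 h exceeded that of the wild type by 0.77 on the log2 scale (−0.77 ± 0.21, adjusted p = 0.0172), beside 8.27% of genes called. At 144 h the level was 29.8 and 29.5 FPKM, next to 28.3 and 29.7 FPKM in wild type. In Del(CBS1-5), with 7.07% of genes called, Lin28a changed by 0.71 ± 0.18 more than in wild type (adjusted p = 0.00952), since it stood at 103 and 101.7 FPKM at 120 h and at 123 and 118 FPKM at 144 h. Within library sets, time course included, these differences were −0.39 (adjusted p = 0.324) and 0.28 (adjusted p = 0.462). With the time course left out they were −0.38 (adjusted p = 0.341) and 0.61 (adjusted p = 0.0142). The Nr6a1 call was lost without wild-type 144 h replicate 2 (adjusted p = 0.0740), Del(CBS4) 120 h replicate 2 (0.110), 144 h replicate 1 (0.0583) or 144 h replicate 2 (0.0635). The Lin28a call was lost without wild-type 144 h replicate 1 (0.0626) or mutant 144 h replicate 1 (0.0508).

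Against wild type, the lists around the members were called as follows. Over the 17 comparisons, GDF11 signalling genes were called in 17 tests higher and 10 lower of 238 (11.3%), let-7 processing genes in 8 and 4 of 136 (8.82%), and let-7 target genes in 7 and 6 of 170 (7.65%), beside the 12.1% of all genes. Pou5f1 and Nanog were called in 8 tests higher and 9 lower of 34 (50%), and the pluripotent marker list that contains them in 22 and 23 of 119 (37.8%). Posterior Hox genes were called in 18.5% of tests and axial progenitor genes in 14.7%.

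The ratios within libraries were lower at 120 h than at 96 h in each of the 7 mutant lines with both stages. That of Lin28a to Lin28b was between 7.52 and 11.6 in all libraries of 96 h, time course included, and between 3.25 and 6.36 in all of 120 h. That of Nr6a1 to Gdf11 had means from 6.14 (Del(CBS1-5)) to 11.6 (Del(sub-TAD1)) at 96 h and from 1.62 (wild type) to 2.46 (Del(CBS4)) at 120 h outside the time course, so that in each line Nr6a1 stayed above Gdf11 at 120 h but by less. At 144 h Lin28a over Lin28b was 3.202 and 3.457 in wild type and 3.26 and 3.37 in Del(CBS4), but 6.531 and 6.855 in Del(CBS1-5), above the 5.16 and 5.52 of that line at 120 h. Nr6a1 was still above Gdf11 in all of these 144 h libraries, with ratios of 1.46 and 1.55 in wild type, 1.44 and 1.56 in Del(CBS1-5) and 1.26 and 1.26 in Del(CBS4), unlike the 144 h libraries of the time course (0.775 and 0.790).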

How the data were processed

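RNA was measured in 61 libraries (28 conditions) of pooled stembryos, prepared from poly-A RNA with a stranded kit and sequenced as 75-base pairs. The authors trimmed reads with cutadapt 1.16, aligned them to mm10 with STAR 2.7.7a on a gene model based on Ensembl, kept unique alignments and computed the deposited FPKM with Cufflinks 2.2.1. The strand setting of Cufflinks is not given in the sources used here, and 55 failed estimates in the tables touched 0 members. Cufflinks' own 95% bounds, which cover counting error only, were a median of 5.00% of the level to each side for Gdf11, 4.56% for Lin28a, 3.80% for Lin28b and 4.62% for Nr6a1. Depth was estimated from levels that are whole multiples of 1 fragment (75.6% to 98.2% of low values in a library, within 0.02 of a whole number).

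Groups were taken from the sample labels. Changes and SE are from limma 3.58.1 (R 4.3.3) on log2(FPKM + 0.1), which understates changes of low genes. All 61 libraries entered 1 model with a coefficient for each condition, over the 17098 genes with a mean of at least 1 FPKM in a condition. Tests were two-sided, with Benjamini-Hochberg adjustment over all genes in each comparison and a threshold of 0.05. The 45 comparisons gave 180 tests of members. The authors' scaling of Hox genes by other clusters was not used. The fit was tested on simulated data.

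The members, the lists (GDF11 signalling, let-7 processing and LIN28 partners, let-7 target genes, NR6A1 target genes, posterior Hox genes, axial progenitor genes and 8 lists of cell type markers) and the library sets were chosen with earlier results of these data known. Of a list, the called genes with the largest rise and fall were named, at most 3 each way; for GDF11 signalling and let-7 targets the other called genes were added after their values were seen. Likest genes were the 5 with the highest correlation among named genes reaching a stage mean of 5 FPKM with a range of at least 1 on the log2 scale. Library age was read against the interpolated time course in steps of 1 h over 1000 genes.

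Same-numbered wild-type libraries of 96 h and 120 h deviated together (r of 0.561 to 0.889 in 4 of 4 pairs, in the data), which was taken as pairing. At both stages, however, replicate 4 is of another library set than the other wild-type libraries compared. A difference between the sets can also give such r, so pairing and library set cannot be told apart here. In the time course 1 of 28 pairs, in the mutant lines 0 of 9, and between mutant and wild type of a stage 0 of 34, were above 0.1. Alternatives were a replicate block, other pseudocounts, filters, scalings and moderation, only the compared groups, controls of the same library set (with and without the time course), age as a covariate and leaving out each library.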

Additional observations from a re-analysis of the deposited data

Results flagged for a closer look

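Lin28b in wild-type 120 h replicate 4, at 34.3 FPKM, stood apart from the other 3 wild-type libraries of that stage (20.7 to 21.5 FPKM). Its gap to the nearest of them was 0.937 of the whole range of the 4, above the 95% critical value of Dixon's test for 4 values. It was the 1 of 8 such values (4 genes in each of the 2 groups of 4 libraries, so not independent) to stand out, and chance gives about 1 in 20. That library belongs to set 2 and the other 3 to set 1. Nr6a1 in the same library, at 47.0 FPKM against 30.7 to 33.8 FPKM, had a gap of 0.812.

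The change of Lin28a from 120 h to 144 h differed between Del(CBS1-5) and wild type by 0.71 on the log2 scale (adjusted p = 0.00952), being 0.23 in the mutant and −0.48 in the wild type. The change of Nr6a1 over the same interval differed between Del(CBS4) and wild type by −0.77 (adjusted p = 0.0172), being −1.07 in the mutant and −0.30 in the wild type. In both cases the 120 h wild-type libraries are mostly of set 1 and those of 144 h of set 2, and neither difference passed with controls of the same set when the time course was included. With the time course left out, Lin28a in Del(CBS1-5) passed (0.61, adjusted p = 0.0142).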

How the results depend on the processing

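Of 45 calls among the members, 23 held in every setting and with each library left out, 22 were lost in at least 1, 14 of them on leaving out a single library, and none turned its direction. Of 135 results that did not pass, 25 did in some setting. The 11 calls of mutants against wild type became 3 with controls of the same library set (time course included), 3 with the time course left out of these, 7 with estimated age as a covariate and 4 with only the compared groups. The 2 differences between stage changes became 0 with controls of the same set, 1 with the time course left out of these, and 0 with only the compared groups. The 7 successive steps became 1 with only the compared groups, a fit of 2 libraries against 2 that leaves few degrees of freedom. The causes were not tested. Lin28b from 120 h to 144 h in wild type turned from 0.14 to −0.036 within library set 2 with the time course (adjusted p = 0.945) and to −0.38 without it (adjusted p = 0.139), none of which passed.

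Leaving out each library in turn gave 8 to 12 calls of mutants against wild type, 17 to 18 between stages of mutant lines, 1 to 2 differences between stage changes, 5 to 10 successive steps, 4 to 5 wild-type changes, and 3 from 72 h to 168 h. With the replicate block the counts were 14, 19, 2, 10, 5 and 3 in that order. It changed no call of wild type from 96 h to 120 h, the stages whose same-numbered libraries deviated together.

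Upper-quartile scaling moved the median of all genes by 0.16 for wild type from 120 h to 144 h, 0.16 for Del(CBS4) and 0.17 for Ins(2xCBS-d4d8) against wild type at 120 h, and median-of-ratios scaling by −0.20 for Del(CBS1-5) from 120 h to 144 h. Restricting wild type from 96 h to 120 h to library set 2 kept its 3 calls. This and leaving the time course out of matched controls were chosen after seeing the data. With 2 libraries in most groups, the smallest Gdf11 difference in size that passed was −0.83 (SE 0.28), so that smaller changes of this gene are not shown to be absent.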

Other observations

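Genes that the axial progenitors and the tail end use changed over the same stages as the 4 timing genes. Of 12 posterior Hox genes 7 were tested, and all 7 rose between 72 h and 168 h, beside 25.3% of all tested genes. Their median log2 change was 6.38, but 3.42 with a pseudocount of 1 FPKM, so its size depends on the pseudocount. Hoxc10 rose by 8.76, Hoxa10 by 7.23 and Hoxd10 by 7.17. From 96 h to 120 h in the separate wild-type libraries 4 of the 7 rose, beside 15.6% of all tested genes. Of 12 axial progenitor genes 4 rose and 6 fell from 72 h to 168 h, beside 25.3% and 22.9% of all tested genes. T, the factor that defines the tail bud mesoderm, fell, as did Cdx1 (−5.84) and Fgf8 (−3.98), while Isl1 (4.28), Sox2 (4.12) and Cdx4 (3.91) rose. Sox2 and Isl1 also mark neural cells.

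Between 72 h and 168 h, 25.3% of all tested genes rose and 22.9% fell. Of the cell type markers, all 5 of the somite list and all 5 of the spinal cord list rose over these stages, as did 3 of 4 endothelium markers. Of 5 presomitic mesoderm markers 1 rose and 3 fell, of 7 pluripotent markers 3 fell, of 5 endoderm markers 2 fell, of 6 germ cell markers 1 rose and 1 fell, and of 3 tested cardiac markers 1 rose. The presomitic sum went from between 575 and 614 FPKM at 84 h to between 41.3 and 41.7 FPKM at 168 h, the stages between which Lin28a and Nr6a1 went from their highest to their lowest means. At 72 h, however, that sum was between 50.8 and 84.1 FPKM, while Lin28a was at 287 and 306 FPKM.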
